A study of Mus musculus with 24 samples.

Results

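Fast excitatory signalling in the hippocampus runs through ionotropic glutamate receptors, and the genes described here are the 37 genes of a chosen list of these receptors, of the metabotropic glutamate receptors and of the proteins that ride along with them. They were chosen by gene symbol from the 51826 genes of the count table, and each of the 37 was found once. The list holds 4 AMPA receptor subunits, 7 NMDA receptor subunits, 5 kainate receptor subunits, 1 delta receptor subunit, 7 metabotropic receptors, 11 AMPA receptor auxiliary subunits (6 TARPs, 2 cornichons and 3 CKAMPs) and 2 Neto subunits of kainate receptors. They are Gria1 to Gria4, Grin1, Grin2a to Grin2d, Grin3a, Grin3b, Grik1 to Grik5, Grid1, Grm2 to Grm8, Cacng2 to Cacng5, Cacng7, Cacng8, Cnih2, Cnih3, Shisa6, Shisa7, Shisa9, Neto1 and Neto2. The choice used gene names and no measured value. A filter on low counts kept 36 of them (all but Grm6), or 35 where Grin3b also fell short.

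The RNA came from the dorsal hippocampus of C57BL/6J mice, labelled as male and aged 2 to 4 months, in 24 libraries; the study's methods name both sexes across its experiments. In RNA-Seq 1, total RNA depleted of ribosomal RNA was sequenced from 3 wild-type (WT) homecage libraries, 3 WT libraries and 3 CBP KIX/KIX libraries, the trained ones taken 1 h after the last trial of the third day of the Morris water maze (MWM), a spatial task. In RNA-Seq 2, polyadenylated RNA was sequenced from 3 WT and 4 CBP KIX/KIX homecage libraries and from 4 WT and 4 CBP KIX/KIX libraries taken 1 h after contextual fear conditioning (CFC) with a single 2 s shock of 1.5 mA. The CBP KIX/KIX mice carry 3 point mutations in the KIX domain of the coactivator CBP, which is the surface that binds phosphorylated CREB; the mutation is present in every cell of the body, and WT controls were littermates. Task, RNA selection and sequencing site changed together between the experiments and cannot be told apart, and no CBP KIX/KIX homecage library was sequenced in RNA-Seq 1.

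Glutamate opens the AMPA, NMDA and kainate receptors directly. AMPA receptors carry most of the fast current, NMDA receptors let in the calcium that starts synaptic plasticity, kainate receptors modulate release and excitability, and metabotropic receptors act through G proteins. TARPs, cornichons and CKAMPs set the trafficking and gating of AMPA receptors, and Neto proteins do so for kainate receptors. CBP is recruited by CREB to genes switched on by neuronal activity, and whether receptor genes belong to them is the question the comparisons address.

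Library totals ran from 38174044 to 65709282 counts in RNA-Seq 1 and from 15385836 to 46056290 in RNA-Seq 2, where replicates 1 and 2 of every group were deeper than replicates 3 and 4. Levels are given as CPM, in which a library's counts are divided by its total, scaled by the upper quartile of its genes, and, between genes, as CPM per kilobase of exon (RPKM). Crebbp, the mutated gene, was at 58.9 to 67.2 CPM in CBP KIX/KIX and 61.0 to 69.7 CPM in WT homecage libraries (log2 difference -0.07, SE 0.07), a level that does not show point mutations. Several libraries stood apart. WT homecage replicates 1 and 2 of RNA-Seq 1 had upper-quartile factors of 0.757 and 0.758. The other 7 libraries of that experiment had 0.821 to 0.895, the highest in homecage replicate 3. Astrocyte markers (Gfap, Aqp4, Aldh1l1, Gja1, S100b) summed to 1008, 1286 and 1999 CPM in CBP KIX/KIX homecage replicates 2, 3 and 4 of RNA-Seq 2. The sum was 741 in replicate 1 and 719 to 774 in WT homecage. Of these 5 markers, 2 had a log2 difference from WT homecage below 0 and 3 above 0. The values ran from -0.03 to 1.32, the highest in Gfap. Where values of receptor genes rest on homecage replicates 1 and 2 of RNA-Seq 1 or on those mutant libraries, values without them are given beside them. Leaving out replicates 1 and 2 makes replicate 3 the only homecage library of RNA-Seq 1. Which of these homecage libraries is the unusual one was not tested. Reads from choroid plexus were uneven (summed Ttr, Folr1, Kl, Clic6 and Aqp1 of 26.3 to 4095 CPM) in trained and homecage groups. In WT homecage replicates 1, 2 and 3 of RNA-Seq 1 this sum was 140, 156 and 1783 CPM.

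Receptor genes spanned over 3 orders of magnitude in the homecage dorsal hippocampus. The cornichon Cnih2, an export chaperone of AMPA receptors, had the highest level per length of the 37 genes, at 454 RPKM in WT homecage libraries of RNA-Seq 1 and 238 RPKM in those of RNA-Seq 2. The AMPA subunit Gria1 followed with 181 and 166 RPKM, and Gria4 was the lowest AMPA subunit with 5.82 and 11.0 RPKM. Among NMDA subunits, Grin2b (61.6 RPKM) led in RNA-Seq 1 and Grin1 (37.5 RPKM), the obligatory subunit, led in RNA-Seq 2, while Grin3b was lowest with 0.231 and 0.0599 RPKM. Per length of the principal transcript, in place of the union of exons, Grin1 led in both experiments (94.1 and 85.9 RPKM), so the order of Grin1 and Grin2b depends on the length used.

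Grik5 was the most abundant kainate subunit (67.0 and 45.7 RPKM) and Grik1 the least (1.33 and 2.39 RPKM), and both ends of the order held with either length. Grm5, a receptor coupled to calcium release, led the metabotropic group with 29.8 and 20.7 RPKM. Grm6, a receptor of retinal bipolar cells, had 0 counts in the WT homecage libraries of RNA-Seq 1, below a limit of 3 counts per library (0.0537 to 0.0905 CPM), and 0.00374 RPKM in those of RNA-Seq 2; it was too low to test in any comparison. TARPs ranged from Cacng5 (6.86 and 3.48 RPKM) up to Cacng8 in RNA-Seq 1 (54.1 RPKM) and Cacng3 in RNA-Seq 2 (18.8 RPKM). Shisa9 was the lowest CKAMP (7.07 and 11.9 RPKM), whereas the leading CKAMP was Shisa7 with the exon length (22.4 and 36.5 RPKM) and Shisa6 with the principal length. Cnih3 reached 51.2 and 24.1 RPKM, and the delta subunit Grid1 18.1 and 11.7 RPKM. Neto1 and Neto2 were close, at 4.66 RPKM each in RNA-Seq 1 and 8.31 against 6.96 RPKM in RNA-Seq 2, and changed order with the length.

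**Figure D1:**
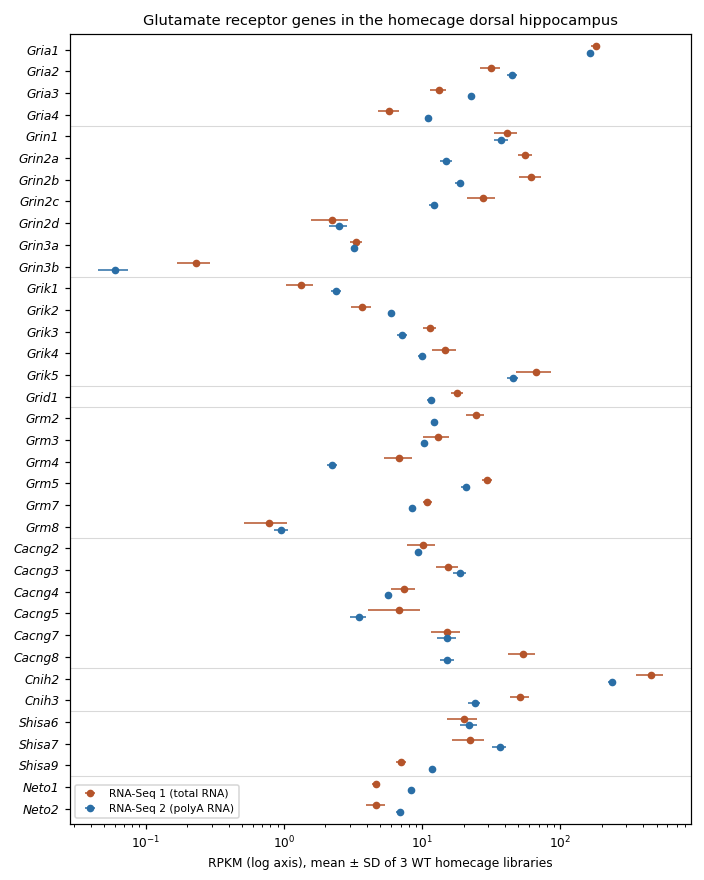
Level per length (RPKM, log axis) of 36 receptor genes in WT homecage libraries, as mean ± SD of 3 libraries in RNA-Seq 1 (orange) and RNA-Seq 2 (blue); Grm6, near 0, is left out and grey lines part the role groups. Cnih2 and Gria1 sit at the right, Grin3b at the far left, and Grin2a, Grin2b, Grm4 and Cacng8 lie further right in RNA-Seq 1.

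The experiments did not give the same picture for every gene. In WT homecage libraries, Grin2a averaged 1007 CPM in RNA-Seq 1 and 269.6 CPM in RNA-Seq 2, a log2 ratio of 1.90. Grin2b (1.71), Cacng8 (1.83) and Grm4 (1.62) showed like ratios, while Gria4 (-0.92), Grik1 (-0.85) and Neto1 (-0.83) were on the other side. Levels are therefore compared within an experiment below.

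CREB reaches its genes through the cAMP response element (CRE), so the 250 bases before the start sites are shown, 5′ to 3′, for the genes called in the comparisons that follow that have a RefSeq entry (GRCm38.p6), with Grin1 added because it was among the few receptor genes with a CRE core. Capitals mark the CRE core TGACG or CGTCA, the E-box CACGTG and the GC box GGGCGG or CCGCCC, on either strand.
Grin2c, chr11:115267244-115267493, minus strand: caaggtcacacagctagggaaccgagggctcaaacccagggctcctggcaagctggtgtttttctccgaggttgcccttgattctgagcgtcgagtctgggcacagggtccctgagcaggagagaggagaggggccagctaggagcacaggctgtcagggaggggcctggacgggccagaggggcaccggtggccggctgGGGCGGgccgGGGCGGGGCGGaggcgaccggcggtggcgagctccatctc
Grik3, chr4:125490446-125490695, plus strand: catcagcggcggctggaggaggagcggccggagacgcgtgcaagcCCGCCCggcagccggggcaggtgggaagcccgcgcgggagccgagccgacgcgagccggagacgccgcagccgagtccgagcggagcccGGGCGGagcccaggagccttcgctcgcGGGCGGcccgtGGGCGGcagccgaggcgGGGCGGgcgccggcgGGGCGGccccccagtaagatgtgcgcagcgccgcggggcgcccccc
Neto2, chr8:85700925-85701174, minus strand: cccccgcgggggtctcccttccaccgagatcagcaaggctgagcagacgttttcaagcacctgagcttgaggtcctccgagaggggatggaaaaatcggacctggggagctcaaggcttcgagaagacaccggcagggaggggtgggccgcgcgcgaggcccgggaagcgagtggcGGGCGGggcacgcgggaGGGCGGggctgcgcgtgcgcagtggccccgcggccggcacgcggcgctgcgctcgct
Grik2, chr10:49788755-49789004, minus strand: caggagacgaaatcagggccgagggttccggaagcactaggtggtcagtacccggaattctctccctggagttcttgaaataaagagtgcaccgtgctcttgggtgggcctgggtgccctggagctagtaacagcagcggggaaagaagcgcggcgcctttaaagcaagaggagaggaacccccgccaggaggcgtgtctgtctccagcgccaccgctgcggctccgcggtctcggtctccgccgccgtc
Grin1, chr2:25319188-25319437, minus strand: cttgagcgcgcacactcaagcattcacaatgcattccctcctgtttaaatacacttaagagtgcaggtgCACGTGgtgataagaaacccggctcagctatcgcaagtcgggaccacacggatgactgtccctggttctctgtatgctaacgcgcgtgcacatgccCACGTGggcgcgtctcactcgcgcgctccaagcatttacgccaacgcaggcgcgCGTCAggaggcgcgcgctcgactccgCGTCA

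RefSeq entries were found for 24 of the 37 genes (29 start sites). The whole palindrome TGACGTCA was in 0 of the 24 and in 1.55% of all 32851 promoters of this length, and the CRE core, which the palindrome also holds, in 2 (Grin1 and Grm8) and in 17.8% of all. The E-box was in 2 (Cnih3 and Grin1) and 6.02% of all, and the GC box in 14 of the 24 genes and 32.7% of all promoters. A gene counted if any of its start sites held the motif, whereas the shares of all are of single promoters. Median G+C was 62.0% over the 29 receptor promoters and 52.4% over all promoters. Grin2c had 3 GC boxes, Grik3 had 6 and the upstream start of Neto2 had 2, while Grik2 had none of the 4 motifs. The other start of Neto2, which is not shown, had 0 GC boxes. A match is a run of letters, not a bound site.

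WT mice after learning were compared with WT homecage mice to ask which receptor genes move with training. In the fit over both experiments, 2 of 36 tested genes passed an adjusted p of 0.05, both lower after learning, the NMDA subunit Grin2c and the kainate subunit Grik3; over all genes 0.794% passed. The other receptor genes stayed short of the threshold in this edgeR fit, with log2 differences from -0.35 (Grin2d) to 0.16 (Grm3). With DESeq2 7 were called (3.43% of all genes), which were Grin2c, Grik3, Grin2d, Grm2 and Shisa9 lower and Gria2 and Grm3 higher. Same-numbered homecage and trained WT libraries deviated together, and with the replicate number as a block 7 were called, all lower (Grin2c, Grin2d, Grik3, Grm2, Cacng2, Cacng4 and Shisa9; 4.5% of all genes), but 0 with the block and no RUVr factors, and 3 with the block, the factors and GC normalization (Grin2c, Grin2d and Shisa9). The fits with both block and factors had nearly as many terms as libraries. At an unadjusted p under 0.05 there were 11 lower and 2 higher against 16.9% of all genes, and the median log2 difference was -0.06 over the 36 genes and -0.03 over all genes tested.

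Grin2c encodes the GluN2C subunit, best known from cerebellar granule cells and giving NMDA receptors with weak magnesium block. In RNA-Seq 1 it was at 162, 151 and 103 CPM in the WT homecage libraries and at 110, 105 and 96.7 CPM after MWM. Homecage replicates 1 and 2 were above every trained library, and replicate 3 fell among them. In RNA-Seq 2 the homecage libraries had 65.7, 56.8 and 61.2 CPM and the CFC libraries 58.7, 51.2, 52.8 and 55.6 CPM. Here the groups overlapped by 1 library. The fall over both experiments was 0.27 on the log2 scale (SE 0.04, edgeR adjusted p = 0.0037). It was called in each of the 13 fits that left out 1 library, with log2 values from -0.35 to -0.21, but not without homecage replicates 1 and 2 of RNA-Seq 1 together, where the difference was -0.11 (adjusted p = 0.545), nor without RUVr factors (-0.29, adjusted p = 0.71; also not with the block added) or after GC normalization (-0.17, adjusted p = 0.0778).

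Grik3 encodes GluK3, a kainate subunit of low agonist affinity. It was at 108, 110 and 89.9 CPM in homecage and at 92.6, 75.7 and 83.2 CPM after MWM. The homecage libraries of RNA-Seq 2 gave 70.5, 63.9 and 59.7 CPM and the CFC libraries 57.8, 55.3, 59.7 and 43.5 CPM. In both experiments the trained libraries lay at the low end, with 1 touching the homecage range. The fall was 0.27 on the log2 scale (SE 0.06, edgeR adjusted p = 0.0417), and the call was lost in 10 of the 13 fits that left out 1 library and in 9 of 12 other alternatives, with log2 values from -0.31 to -0.17 throughout. Without homecage replicates 1 and 2 of RNA-Seq 1 the value was -0.21 (adjusted p = 0.51).

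**Figure D2:**
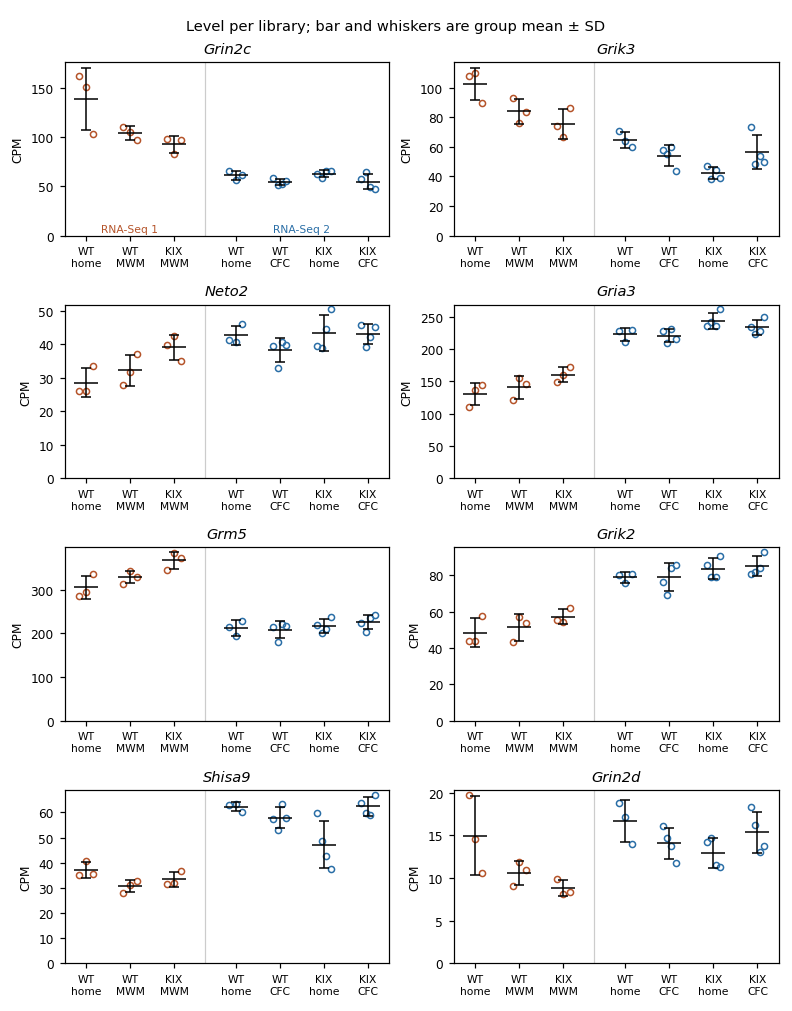
CPM of 8 receptor genes in each of the 24 libraries (open circles; RNA-Seq 1 orange, RNA-Seq 2 blue, axes from 0), with the group mean ± SD as bar and whiskers. Grin2c is high in 2 WT homecage libraries of RNA-Seq 1, Grik3 is lowest in KIX homecage, and Neto2 is highest in KIX MWM within RNA-Seq 1.

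Other genes named for their p were not called in the edgeR fit without the block. Grm2, a presynaptic receptor that lowers glutamate release, differed by -0.19 (SE 0.04, adjusted p = 0.0621) and Grm3, its relative that is also found on astrocytes, by 0.16 (SE 0.05, adjusted p = 0.128). Gria2, the subunit that keeps AMPA receptors closed to calcium, differed by 0.10 (SE 0.04, adjusted p = 0.182), and Gria1, which dominates AMPA receptors of CA1 together with Gria2, by 0.07 (SE 0.04, adjusted p = 0.402). Without homecage replicates 1 and 2 of RNA-Seq 1 these values were -0.05 for Grm2, 0.02 for Grm3, -0.0043 for Gria2, 0.03 for Gria1 and -0.18 for Grin2d. The 4 AMPA subunits had values above 0 (median 0.06), and the 6 TARPs (median -0.13), 2 cornichons and 3 CKAMPs (median -0.11) had values below 0. That split of signs rested on the same homecage libraries. Without them 3 of 4 AMPA subunits were below 0, and 7 of the 11 TARPs, cornichons and CKAMPs were above 0. After CFC alone 2 of 4 AMPA subunits and 3 of 11 of these auxiliary subunits were above 0.

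Taken by experiment, no receptor gene passed the adjusted threshold with edgeR. After MWM 0 of 36 were called (0.0139% of all genes), with 7 lower and 0 higher at an unadjusted p under 0.05 (9.17% of all genes) and 0 calls with DESeq2. The 7 became 4 with TMM scaling, and 2 or 3 without homecage replicate 1 or 2. With the replicate block 1 gene was called after MWM, the TARP Cacng4, against 2.15% of all genes, and 0 with the block and GC normalization. After CFC 0 of 35 were called (0.116% of all genes), with 2 lower and 0 higher unadjusted (3.91% of all genes) and 0 with DESeq2. Grin2c gave -0.41 (SE 0.15) after MWM and -0.17 (SE 0.06) after CFC, and Grik3 gave -0.29 (SE 0.12) and -0.26 (SE 0.10). Leaving out homecage replicate 3 of RNA-Seq 1 raised the MWM count from 0 to 9 (8 lower, among them Grin2c, Grin2d, Grik3, Grm2 and Cacng4) and the share of all genes called to 9%, and leaving out replicates 1 and 2 gave 0. The difference between the tasks passed for 0 of 36 genes (0.0136% of all genes); 2 were lower at an unadjusted p under 0.05 (7.46% of all genes) and DESeq2 called 0.

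**Figure D3:**
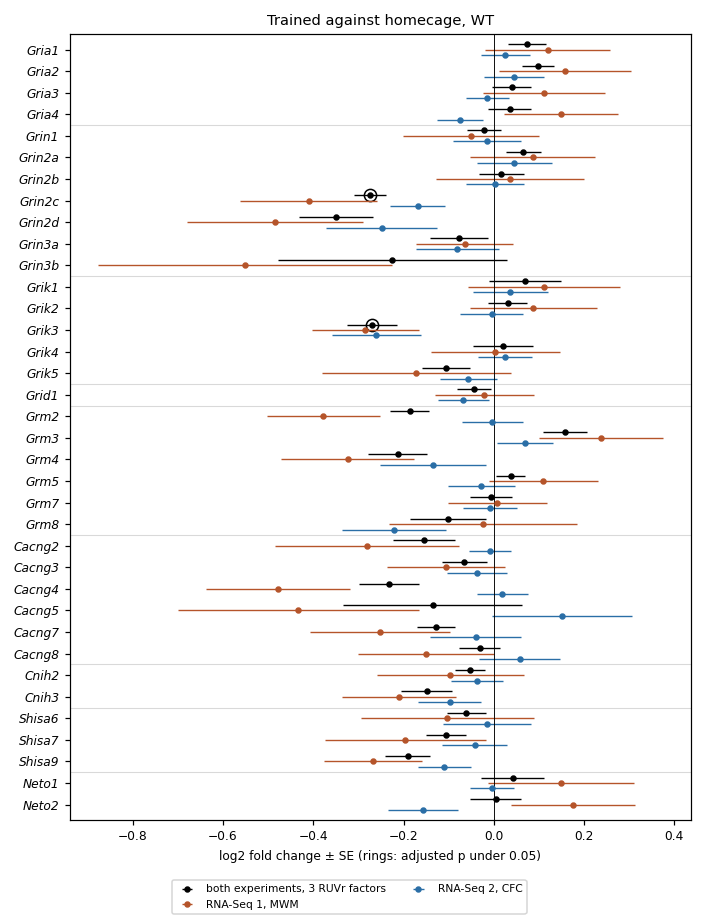
log2 fold change ± SE of trained against homecage WT libraries for 36 receptor genes, over both experiments (black), in RNA-Seq 1 (orange) and in RNA-Seq 2 (blue); rings mark an adjusted p under 0.05. Rings stand at Grin2c and Grik3, both at -0.27, and MWM values reach further from 0 than CFC values for many genes.

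Markers of other cells were read beside these values. Over both experiments none of 5 astrocyte, 5 oligodendrocyte or 4 microglial markers was called, while 1 of 3 endothelial markers was lower, Cldn5 by -0.49 (SE 0.09, edgeR adjusted p = 0.0334), which was -0.32 (adjusted p = 0.545) without homecage replicates 1 and 2 of RNA-Seq 1. The 5 choroid plexus markers had values above 0, from 0.70 to 2.39 (median 1.5), each at an unadjusted p under 0.05 and with a lowest adjusted p of 0.056. Their sum was 26.3, 1637 and 27.8 CPM in the WT homecage and 34.1, 4095, 1682 and 1781 CPM in the WT CFC libraries of RNA-Seq 2. The 4 thalamic markers had values below 0 (median -0.26, 0 called). In RNA-Seq 1 the summed endothelial markers Cldn5, Flt1 and Pecam1 were 136 to 164 CPM in homecage and 93.1 to 123 CPM after MWM. The 8 markers of pyramidal and granule neurons summed to 8631, 9228 and 5477 CPM in the 3 homecage libraries of RNA-Seq 1 and to 6483 to 7881 CPM after MWM. This sum was thus above the MWM range in homecage replicates 1 and 2 and below it in replicate 3. By gene, 5 of the 8 had log2 differences after MWM below 0 and 3 above 0 (-0.60 to 0.23). No marker of these lists was at 0 in a whole group. In bulk tissue fewer cells of a type and less RNA per cell cannot be told apart, and the part of these markers in the receptor values was not tested.

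Trained mutants were set against trained WT mice to ask which receptor genes depend on the KIX domain. Over both experiments 4 of 36 genes passed, all higher in CBP KIX/KIX, against 2.42% of all genes tested. These were Neto2, an auxiliary subunit of kainate receptors, the AMPA subunit Gria3, the metabotropic receptor Grm5 and the kainate subunit Grik2. In this edgeR fit none was lower. With DESeq2 6 were called (4.12% of all genes), the same 4 and Gria2 higher and Grin1 lower. The median log2 difference was -0.01 over the 36 genes, as over all genes, and the unadjusted p was under 0.05 for 4 genes with lower and 6 with higher values, against 17.8% of all genes.

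Neto2 was at 27.9, 31.7 and 37.1 CPM in WT MWM libraries and at 39.8, 42.5 and 35.0 CPM in CBP KIX/KIX MWM libraries. After CFC it was at 39.7, 32.9, 40.8 and 39.9 CPM in WT and at 45.9, 39.3, 42.2 and 45.1 CPM in CBP KIX/KIX. The groups overlapped in both experiments, with the mutant libraries at the high end. The rise was 0.23 on the log2 scale (SE 0.05, edgeR adjusted p = 0.0303).

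Gria3, which encodes an AMPA subunit of the X chromosome, was at 121, 155 and 147 CPM in WT and 149, 160 and 173 CPM in CBP KIX/KIX after MWM. After CFC it was at 228, 209, 232 and 215 CPM in WT and 234, 224, 228 and 249 CPM in CBP KIX/KIX. The ranges overlapped in both experiments, and the rise was 0.14 (SE 0.03, edgeR adjusted p = 0.0325).

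Grm5 was at 314, 342 and 330 CPM in WT MWM libraries and at 347, 384 and 374 CPM in CBP KIX/KIX MWM libraries, without overlap. After CFC the WT libraries had 215, 181, 221 and 218 CPM and the CBP KIX/KIX libraries 224, 203, 235 and 242 CPM. Its rise was 0.14 (SE 0.03, edgeR adjusted p = 0.0362). Grik2, the most studied kainate subunit of hippocampal pyramidal cells, was at 43.2, 57.1 and 53.8 CPM in WT and 55.6, 54.2 and 61.7 CPM in CBP KIX/KIX after MWM. After CFC it was at 76.2, 69.2, 84.0 and 85.7 CPM in WT and 80.6, 81.7, 84.0 and 92.7 CPM in CBP KIX/KIX, with a rise of 0.14 (SE 0.03, edgeR adjusted p = 0.0409).

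These calls depended on the factors fitted for unwanted variation. Without RUVr factors, with 2 of them, after GC normalization or without a filter on low counts, 0 of the 4 were called. Without factors the values were 0.22 for Neto2, 0.13 for Gria3, 0.14 for Grm5 and 0.13 for Grik2, so the call was lost there with little change in the difference, as it was with 2 factors and without a filter. After GC normalization the values were smaller, 0.12 for Neto2, 0.02 for Gria3, 0.10 for Grm5 and 0.05 for Grik2. Leaving out 1 library lost the call of Neto2 in 4 of 14 fits and of Gria3, Grm5 and Grik2 in 7 of 14 each. Without WT MWM replicate 1 none of the 4 stayed called, with Neto2 at 0.18, Gria3 at 0.09, Grm5 at 0.12 and Grik2 at 0.09.

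Among genes named for their p, Grin1 differed by -0.09 (SE 0.03, adjusted p = 0.119), Grik5 by -0.10 (SE 0.04, adjusted p = 0.162) and Grin2c by -0.07 (SE 0.03, adjusted p = 0.255), none of which was called in the edgeR fit without the block. DESeq2 called Grin1 (adjusted p = 0.0223). With the replicate block and RUVr factors, edgeR called Grin1 and Grik5 lower and 7 receptor genes higher, where 13.4% of all genes were called. That fit had nearly as many terms as libraries, and not every genotype pair met the pairing rule. With the block and no factors 0 receptor genes were called (0.0372% of all genes). In the single experiments 0 of 36 receptor genes were called after MWM with edgeR (0.0141% of all genes), with 1 lower and 3 higher unadjusted (10.5% of all genes) and 0 with DESeq2, and 0 of 35 after CFC (0.0057% of all genes), with 0 lower and 1 higher unadjusted (3.47% of all genes) and 0 with DESeq2. Neto2 was 0.29 (SE 0.11) after MWM and 0.18 (SE 0.08) after CFC, and 0.02 (SE 0.09) in the homecage.

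**Figure D4:**
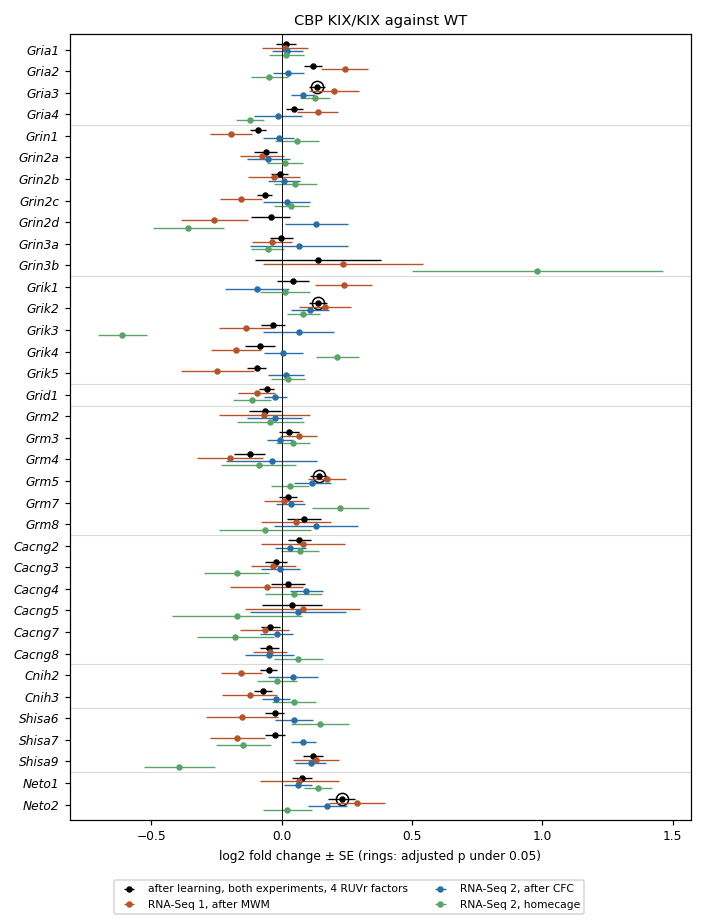
log2 fold change ± SE of CBP KIX/KIX against WT for 36 receptor genes after learning in both experiments (black), after MWM (orange), after CFC (blue) and in the homecage (green); rings mark an adjusted p under 0.05. Rings stand at Gria3, Grik2, Grm5 and Neto2, and the green points of Grik3, Shisa9 and Grin2d lie to the left of the others.

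Astrocyte markers moved in the same comparison. Of 5, Gfap was lower by -0.29 (SE 0.04, adjusted p = 0.0029), Aldh1l1 was lower by -0.26 (SE 0.04, adjusted p = 0.0059) and Gja1 was higher by 0.16 (SE 0.03, adjusted p = 0.0092), and their summed level was 555 to 607 CPM in CBP KIX/KIX against 624 to 670 CPM in WT after MWM, and 654 to 749 against 711 to 772 CPM after CFC. Of the 8 pyramidal and granule neuron markers 1 was lower (Fibcd1, -0.30) and of 6 interneuron markers 1 (Sst, -0.19). The cortical marker Cux2 was also lower (-0.26, edgeR adjusted p = 0.0139), while Rorb (0.03) and Tbr1 (-0.19) did not pass. The part of these in the receptor values was not tested.

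In the homecage, CBP KIX/KIX and WT libraries were compared to ask whether genotype matters without training. With edgeR 0 of 36 receptor genes passed (0.0107% of all genes), 3 were lower and 2 higher at an unadjusted p under 0.05 (6.12% of all genes), and DESeq2 called 1, Grik3 (0.316% of all genes). Grik3 was at 70.5, 63.9 and 59.7 CPM in WT and at 47.2, 38.4, 44.7 and 39.1 CPM in CBP KIX/KIX homecage libraries. All 4 mutant libraries were below all 3 WT libraries. The log2 difference was -0.61 (SE 0.09, edgeR adjusted p = 0.189; DESeq2 adjusted p = 1.61e-05; 0.0138 without a filter on low counts), and it was -0.60 without replicates 3 and 4 and -0.45 with replicate 1 as the only mutant library.

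Shisa9, a CKAMP that speeds AMPA receptor desensitization, was at 63.0, 63.4 and 60.1 CPM in WT and 59.6, 48.5, 42.8 and 37.7 CPM in CBP KIX/KIX homecage libraries. No value overlapped, but the difference of -0.39 (SE 0.14, adjusted p = 0.786) shrank to -0.20 without replicates 3 and 4 and to -0.06 with replicate 1 alone. Grin2d, an NMDA subunit of interneurons in the adult, was at 18.8, 17.2 and 14.0 CPM in WT and 14.3, 14.7, 11.5 and 11.3 CPM in CBP KIX/KIX, a difference of -0.36 (SE 0.14, adjusted p = 0.798) that was -0.21 without replicates 3 and 4. On the higher side stood Grik4 with 0.21 (SE 0.08), Neto1 with 0.14 (SE 0.05) and Gria3 with 0.13 (SE 0.06), each with an adjusted p of 0.8; without replicates 3 and 4 they were 0.11, 0.13 and 0.10.

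The mutant homecage libraries differed in other genes too. Homer1, a scaffold gene induced by activity, was at 80.0, 74.2, 131 and 135 CPM in replicates 1 to 4, against 80.8 to 95.4 CPM in WT homecage. Nptx2, a secreted pentraxin that clusters AMPA receptors and is also induced by activity, was at 16.7, 35.1, 125 and 149 CPM against 20.8 to 24.5 CPM. Gfap gave a log2 difference of 1.32 (SE 0.42, adjusted p = 0.786). The cortical markers Rorb, Cux2 and Tbr1 gave log2 differences of -0.08, -0.44 and -0.61 (edgeR adjusted p = 0.910, 0.329 and 0.623). The 4 thalamic markers summed to 34.6 to 58.0 CPM in the mutant and 57.1 to 64.2 CPM in WT homecage. Their part in the receptor values was not tested, beyond the values without those libraries.

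Training in CBP KIX/KIX mice gave 0 of 35 calls with edgeR (0.0113% of all genes), 1 lower and 3 higher at an unadjusted p under 0.05 (9.43% of all genes), and 0 with DESeq2. Grik3 was at 73.5, 48.6, 54.0 and 49.5 CPM after CFC, all above the 4 mutant homecage libraries, a log2 difference of 0.41 (SE 0.13, adjusted p = 0.491). Shisa9 was at 63.9, 59.7, 58.8 and 67.0 CPM after CFC, a difference of 0.40 (SE 0.12, adjusted p = 0.491) that, among the alternatives run, was called without homecage replicate 1 alone, where 0.912% of all genes were. Homecage replicate 1 of Shisa9 (59.6 CPM) lay within the CFC range, and without homecage replicates 3 and 4 the differences were 0.20 for Shisa9 and 0.40 for Grik3, and with replicate 1 as the only homecage library 0.05 and 0.25. WT and mutant libraries thus lay on opposite sides for Grik3, -0.26 and 0.41. The test of that difference, the genotype by training interaction, called 0 of 36 genes with edgeR (0% of all genes), with 0 lower and 3 higher unadjusted (4.79% of all genes) and 0 with DESeq2. It was 0.68 for Grik3 (SE 0.19), 0.51 for Shisa9 (SE 0.15) and 0.50 for Grin2d (SE 0.20), each at an adjusted p of 0.95. Without mutant homecage replicates 3 and 4 these were 0.66, 0.31 and 0.34, and with replicate 1 as the only mutant homecage library 0.52, 0.17 and 0.36. These comparisons share the mutant homecage libraries. The WT CFC difference, the homecage genotype difference and the interaction also share the WT homecage libraries, so they are not separate evidence.

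Subunit balance was read as a ratio of counts per exon-union length within each library, which no library scaling can change. The level and sign of a log2 ratio depend on that length, while differences between groups do not. Per principal transcript, WT homecage Grin2a and Grin2b were at 68.8 and 63.7 RPKM in RNA-Seq 1 and at 18.4 and 19.5 RPKM in RNA-Seq 2. The log2 ratio of Grin2a to Grin2b, the adult and the juvenile partner of Grin1, averaged -0.13 (SD 0.10, n = 3) in WT homecage and -0.08 (SD 0.11, n = 3) in WT MWM libraries of RNA-Seq 1, and -0.33 (SD 0.12, n = 3) and -0.29 (SD 0.09, n = 4) in WT homecage and CFC libraries of RNA-Seq 2. Stratified by experiment, the learning difference was 0.04 (two-sided exact permutation p = 0.429, 0.7 adjusted over 4 ratios; smallest possible 0.0029). The genotype difference was -0.05 over 3 strata (exact permutation p = 0.305, adjusted 0.7).

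The log2 ratio of Gria1 to Gria2 averaged 2.54 (SD 0.16, n = 3) in homecage and 2.49 (SD 0.27, n = 3) in MWM libraries of WT mice, and 1.89 (SD 0.07, n = 3) and 1.87 (SD 0.03, n = 4) in homecage and CFC libraries. The learning difference was -0.03 (exact permutation p = 0.71, adjusted 0.71), or 0.02 without homecage replicates 1 and 2 of RNA-Seq 1, and the genotype difference -0.05 (exact permutation p = 0.525, adjusted 0.7). After MWM the mutant ratio was 2.26 (SD 0.10, n = 3), 0.23 below WT, with an exact permutation p of 0.2 where 0.1 was the smallest possible. None of the 4 ratios differed beyond the spread of the libraries.

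The log2 differences of the receptor genes, most of which were not called, were set against a feature of their sequence that the list did not use. The share of G and C bases in the longest annotated transcript ran from 36.5% in Neto2 and 36.8% in Gria2 to 65.0% in Grin2d and 65.05% in Cacng8. Across the 36 genes the log2 difference after MWM was more negative at a higher share (Pearson r = -0.74, Spearman rho = -0.77), and likewise for the genotype difference after MWM (r = -0.68, rho = -0.69) and the learning difference over both experiments (r = -0.65, rho = -0.66). After CFC the coefficients were -0.17 for learning in WT and -0.34 for genotype, and in the homecage genotype comparison 0.02. Across all genes r was -0.15, -0.13 and -0.10 in the first 3 of these. Genes are not independent replicates, and the points share libraries and depth, so these are descriptions.

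**Figure D5:**
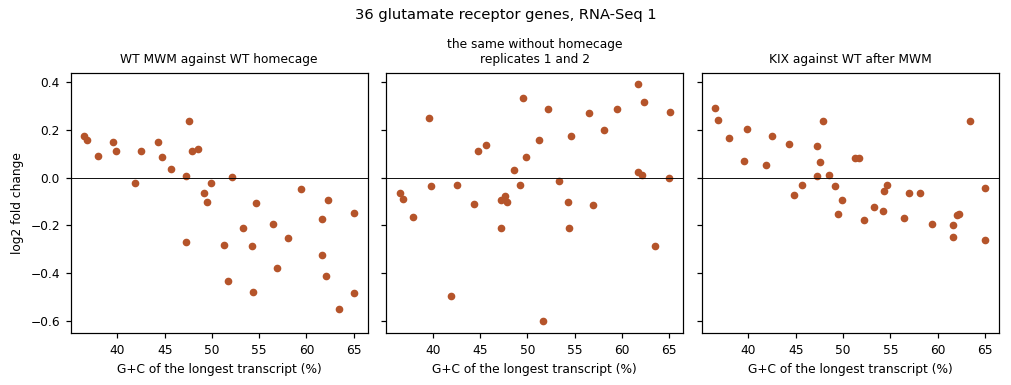
log2 fold change of 36 receptor genes in RNA-Seq 1 against the G+C share of the longest transcript (%), for WT MWM against homecage with all libraries, for the same without homecage replicates 1 and 2, and for CBP KIX/KIX against WT after MWM. The slope is downward in the first panel (r = -0.74) and in the panel on the right (r = -0.68), and upward in the middle (r = 0.30).

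The learning coefficient after MWM differed with the homecage libraries kept. Without homecage replicates 1 and 2 of RNA-Seq 1, which leaves replicate 3 alone, it was 0.30 instead of -0.74. Without replicate 3 it was -0.84. The genotype comparison after MWM uses no homecage library, and its coefficient ran from -0.74 to -0.52 with 1 library left out. GC normalization brought the coefficient to -0.32 for MWM learning (with or without the replicate block) and to -0.29 for genotype after MWM. The 4 genes called higher in CBP KIX/KIX were 36.5% (Neto2), 37.9% (Grik2), 39.8% (Gria3) and 42.5% (Grm5) G+C, and the called Grin2c and Grik3 were 62.1% and 54.2%.

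In the wider glutamate synapse few of the 39 other listed genes were called. After learning in WT mice 10 were lower and 5 higher at an unadjusted p under 0.05 (16.9% of all genes). Among the 39, 1 was called (0.794% of all genes), Homer1, higher by 0.21 (SE 0.03, edgeR adjusted p = 0.0175). It was at 106, 112 and 119 CPM in homecage and 134, 135 and 149 CPM after MWM, with no overlap. In RNA-Seq 2 it was at 82.4, 80.8 and 95.4 CPM in homecage and at 93.1, 93.9, 94.4 and 93.4 CPM after CFC, where homecage replicate 3 was above every trained library. Without homecage replicates 1 and 2 of RNA-Seq 1 the difference was 0.16 (edgeR adjusted p = 0.496), and after GC normalization 0.14 (adjusted p = 0.161). In CBP KIX/KIX against WT after learning 11 were lower and 1 higher at an unadjusted p under 0.05 (17.8% of all genes). After adjustment 3 of 39 were called, all lower (2.42% of all genes). These were Nptx2 by -0.49 (SE 0.05, adjusted p = 0.000187), and the scaffold genes Dlgap4 by -0.12 (SE 0.03, adjusted p = 0.0316) and Dlgap2 by -0.14 (SE 0.03, adjusted p = 0.0378). Without RUVr factors the edgeR adjusted p was 0.018 for Nptx2, 0.559 for Dlgap4 and 0.456 for Dlgap2. After GC normalization it was 0.000968, 0.263 and 0.295, so the calls of Dlgap4 and Dlgap2 were lost in both. Nptx2 was at 56.3, 49.8 and 61.9 CPM in WT and 40.7, 44.3 and 41.4 CPM in CBP KIX/KIX after MWM, and at 29.9, 30.3, 22.9 and 25.6 against 19.6, 19.5, 15.8 and 17.8 CPM after CFC. The mutant libraries lay below all WT libraries in both tasks. In the homecage comparison 0 of 39 were called with edgeR (0.0107% of all genes), with 3 lower and 6 higher at an unadjusted p under 0.05 (6.12% of all genes).

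Some receptor genes share ground with others. Exons of 12 of the 37 overlap those of genes on the opposite strand. Among them are 1307 bases in Grin1 (Grin1os), 1059 in the sparse Grin3b (Tmem259), 643 in Grin2d, 470 in Grm2, 91 in Grin2c and 20 in Neto2. Since the strand setting of the counting is not given in the sources used here, reads of such pairs cannot be told apart. Shisa9 and Grin2a lie on chromosome 16, 7.77 and 5.35 megabases from Crebbp. Grin2a differed by -0.06 after learning (SE 0.04, adjusted p = 0.497) and 0.01 in the homecage (SE 0.07, adjusted p = 0.988) between genotypes.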

How the data were processed

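Dorsal hippocampus RNA was sequenced as paired ends (150 bp in RNA-Seq 1, 100 bp in RNA-Seq 2). Per the submitters' processing notes the authors used STAR, featureCounts 1.4.4 and SAMtools 1.6 (builds mm10 and GRCm38), and they deposited raw counts per gene; annotation release and strand setting are not given in the sources used here. All 24 columns were used.

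Genes passing filterByExpr were tested with edgeR 4.0.16 (R 4.3.3; quasi-likelihood, upper-quartile scaling, Benjamini-Hochberg over all genes tested). The SE of a log2 difference was derived from this test, as its absolute value divided by the square root of the F statistic. RUVr factors (3 for WT learning, 4 for genotype after learning, 0 otherwise) and an experiment term followed the study; RUVr was rewritten and the study's GC step was run as an alternative. RPKM used GENCODE M21 exon unions. Ratios used exact permutation (SciPy 1.17.1). Alternatives were DESeq2 1.42.0, TMM, filters, factors, blocks and left-out libraries. Named genes were those called in any comparison, the 3 of lowest p in each direction of the WT learning, genotype after learning and homecage genotype comparisons, and the most and least abundant of each role group. Labels number the replicates, and same-numbered homecage and trained libraries of a genotype were treated as pairs in an alternative fit, since each pair's deviations from the group means correlated above 0.1 (0.1004 to 0.375 over 6 WT pairs, 0.146 to 0.248 over 4 CBP KIX/KIX pairs); the labels do not say what a number marks. Where 1 library was left in a group, it was taken to vary like the other group. The tests were also run on simulated counts without shared unwanted variation or a GC effect. That check cannot show how the RUVr fits handle such variation in these data. One marker gene is not reported here. The genes and lists were chosen with earlier results of these data known. Labels do not say that each library is a separate mouse, so p-values measure the spread between libraries.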

Additional observations from a re-analysis of the deposited data

Results flagged for a closer look

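In 87 groups of 4 libraries checked for the 28 named receptor genes and the subunit ratios, 4 held a library whose gap to its neighbour took up more of the group's range than the 95% limit of Dixon's test allows; chance gives about 1 in 20. Grm5 was at 181 CPM in WT CFC replicate 2 against 215 to 221 CPM in the other 3 libraries, and Neto2 was at 32.9 CPM in the same library against 39.7 to 40.8 CPM. Without this library the genotype difference after learning was 0.11 for Grm5 (edgeR adjusted p = 0.0456) and 0.20 for Neto2 (edgeR adjusted p = 0.0271). Cacng5 was at 19.3 CPM in CBP KIX/KIX homecage replicate 4 against 9.09 to 10.5 CPM. Grik1 was at 11.4 CPM in CBP KIX/KIX CFC replicate 2 against 16.8 to 17.2 CPM.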

How the results depend on the processing

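Counts of receptor genes called depended on the processing in the fits over both experiments. For WT learning the 2 calls became 0 without RUVr factors, 1 with 2 factors, 0 after GC normalization with or without factors, 1 with TMM, 7 with DESeq2, 1 without a filter and 0 without WT homecage replicates 1 and 2 of RNA-Seq 1 (chosen after seeing the data, as were GC normalization without factors, with the block or in single experiments and the removal of CBP KIX/KIX homecage libraries). For genotype after learning the 4 calls became 0 without factors, 0 with 2 factors, 0 after GC normalization with or without factors and 0 without a filter, and were 6 with DESeq2 and 4 with TMM or a minimum of 1 CPM. Leaving out 1 library gave 1 to 15 calls for WT learning (15 without WT homecage replicate 3), 0 to 5 for genotype after learning (0 without WT MWM replicate 1, CBP KIX/KIX MWM replicate 2 or CBP KIX/KIX CFC replicate 4), 0 to 9 for WT MWM and 0 to 1 for CBP KIX/KIX CFC. For the homecage genotype comparison DESeq2 and no filter each gave 1. The cause of these changes was not tested. Over all genes, calls for WT learning were 175, and 9 without factors, 98 with 2, 57 after GC normalization, 756 with DESeq2 and 84 without a filter; for genotype after learning they were 520, and 4, 131, 211, 886 and 253. Gria2 after learning turned to -0.0043, and the Gria1 to Gria2 learning difference to 0.023, without WT homecage replicates 1 and 2. The Gria1 to Gria2 difference ran from -0.095 to 0.001 for learning and from -0.067 to 0.002 for genotype with 1 library left out.

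With the replicate block, WT learning gave 0 calls without factors, 7 with them (4.5% of all genes) and 3 with them and GC normalization, and WT MWM gave 1 (2.15% of all genes); the block changed no other call of WT or CBP KIX/KIX training. Between genotypes same-numbered correlations ran from -0.158 to 0.377 after learning, and 5 of 14 libraries correlated best with their own number. Pairs above 0.1 were 0 of 3 after MWM, 3 of 4 after CFC and 2 of 3 in the homecage. So not every pair met the rule used for training. For genotype after learning the block gave 0 calls without factors and 9 with them (13.4% of all genes). In both comparisons the block and the factors together left few libraries free to measure the spread. The 4 ratios kept their side of the threshold with the block (exact sign-flip p from 0.455 to 0.67). Depth limits genes such as Grin3b and Grm6, for which 3 counts stand for up to 0.174 CPM.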
